A study of Mus musculus with 8 samples.

Results

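The collagen genes outside type IV were described in mouse kidney RNA. Members were the genes whose symbol reads Col, a number, a and a number, without Col4a1 to Col4a6. This gave 38 of the 21759 genes in the deposited table. Of these, 27 had 10 or more counts in at least 4 of the 8 libraries and are described here. The 8 libraries came from kidneys of 8-month-old male knock-in mice of a MUC1 kidney disease model, in which an altered mucin-1 is made and held in the early secretory pathway. Vehicle (saline) was given daily for 7 days to 4 mice. BRD4780, a small molecule that binds a cargo receptor of the early secretory pathway, was given to the other 4 at 50 mg/kg daily for the same 7 days. All 8 mice carried the knock-in, and no mice without it were analysed here. The labels name no promoter, copy number or strain background for it. The design text counts a separate mouse for each library, so the spread between libraries includes the spread between animals.

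Collagens are secreted proteins in which chains wind into a triple helix. Fibrillar collagens make the rope-like fibers of the kidney's interstitium and vessel walls, fibril-associated collagens coat those fibers, and type VI collagen makes beaded microfilaments around cells. The multiplexins Col15a1 and Col18a1 sit at the border of basement membranes, and the transmembrane collagens stay anchored in the cell surface. Every chain is modified and folded in the endoplasmic reticulum, leaves it in enlarged transport carriers, and is trimmed and crosslinked outside the cell. Accumulation of interstitial collagen is the hallmark of kidney fibrosis.

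The members that passed the test were 2 of 27, Col20a1 and Col13a1, and both were higher with BRD4780. The stretches of 250 bases upstream of their RefSeq start sites are shown because both genes rose, with that of Col15a1, the member with the lowest fold change, for contrast. They are printed 5′ to 3′ on the gene's strand in GRCm38.p6. Capitals mark a match on either strand to 1 of 3 promoter elements. The first, which helps to place the start of transcription, was searched as TATAAA. The next, which the factor NF-Y binds, was searched as CCAAT. The last, known as the GC box and bound by Sp1, was searched as GGGCGG.
Col20a1, chr2:180986285-180986534, plus strand: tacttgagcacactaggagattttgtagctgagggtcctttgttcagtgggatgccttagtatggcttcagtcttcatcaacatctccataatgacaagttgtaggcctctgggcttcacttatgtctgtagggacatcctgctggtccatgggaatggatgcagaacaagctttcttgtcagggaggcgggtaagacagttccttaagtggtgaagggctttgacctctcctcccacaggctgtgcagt
Col13a1, chr10:61979109-61979358, minus strand: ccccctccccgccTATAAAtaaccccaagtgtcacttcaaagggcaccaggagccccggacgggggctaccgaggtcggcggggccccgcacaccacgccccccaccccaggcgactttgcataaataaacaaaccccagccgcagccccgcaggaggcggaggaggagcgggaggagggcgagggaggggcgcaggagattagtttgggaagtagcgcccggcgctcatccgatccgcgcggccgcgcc
Col15a1, chr4:47207762-47208011, plus strand: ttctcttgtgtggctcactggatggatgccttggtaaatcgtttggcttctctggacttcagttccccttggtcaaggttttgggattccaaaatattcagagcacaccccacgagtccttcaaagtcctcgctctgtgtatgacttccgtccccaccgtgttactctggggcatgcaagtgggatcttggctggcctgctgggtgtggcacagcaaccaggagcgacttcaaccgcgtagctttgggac
The Col13a1 stretch held 1 match to TATAAA, near the end farthest from the start site, and had a GC content of 68.8%. The Col20a1 and Col15a1 stretches held none of these letters and had GC contents of 49.2% and 53.6%. Over all 32851 RefSeq promoters of this length, 12.4% held a TATAAA, 33.8% a CCAAT and 32.7% a GGGCGG. Their median GC content was 52.4%, and no share was adjusted for GC content. Of the 27 described members 22 matched a RefSeq promoter, and the GGGCGG was found in 14 of these 22, the CCAAT in 6 and the TATAAA in 3. The units differ: the shares are per promoter, while a member counted if any of its promoters held the match. Col18a1 and Col6a2 have more than 1 promoter. No motif is part of another, and a match is a description of the sequence only.

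Levels are read counts per 1000000 counts of the library (CPM), with each library's total scaled by the trimmed mean of M-values (TMM). Fold changes and their standard errors (SE) come from edgeR's quasi-likelihood test, and adjusted p-values are Benjamini-Hochberg values over all 13474 genes with a threshold of 0.05. Library totals ranged from 16.6 to 28.5 M counts with vehicle and from 5.74 to 28.2 M with BRD4780, and the smallest was BRD4780 replicate 4. The test covered 13474 genes and called 310 of them higher and 84 lower in treated kidneys. The kidney origin was visible in the summed proximal tubule markers, most of it Kap, at 33540 to 60160 CPM over the 8 libraries. Without BRD4780 replicate 3 the same test called 1647 genes higher and 1537 lower, and without vehicle replicate 2 it called 26 and 5.

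All 27 described members entered the test, and 25 of them had 10 or more counts in every library. Col6a5 reached that level in 7 libraries and Col13a1 in 5, which put Col13a1 just inside the limit for description. This limit and the test's filter take both groups together. Col13a1 was higher in the treated libraries (0.864 to 1.64 CPM, against 0.368 to 0.574), which helped it to pass them. With no filter on low counts its adjusted p was 0.0568 in edgeR. Col25a1, a transmembrane collagen of neurons, was the closest member outside it, with 10 counts in 2 libraries. The 11 members that were not described are Col2a1, Col6a4, Col8a2, Col9a1, Col9a2, Col9a3, Col10a1, Col17a1, Col22a1, Col25a1 and Col28a1, with between 3 and 49 counts summed over the 8 libraries. Among them are the type II, IX and X collagens of cartilage. Of 7 cartilage and bone markers, Ibsp had 0 counts, Acan, Matn1 and Sp7 had at most 3 in any library, and Bglap reached 0.144 CPM. The 2 that were tested, Sox9 and Comp, had means of 0.797 and 0.675 CPM with vehicle and 1.39 and 1.10 CPM with BRD4780, at log2 fold changes of 0.83 and 0.67 (adjusted p = 0.113 and 0.264, edgeR), and their part in the collagen values was not tested. By structural class, 10 of 11 fibrillar genes were described, 5 of 6 of type VI, 5 of 9 fibril-associated, 2 of 4 transmembrane, both multiplexins, 1 of 3 short-chain network collagens, the anchoring fibril gene Col7a1, and 1 of 2 others.

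Per kilobase of exon, the highest collagen outside type IV in vehicle kidneys was Col18a1, at a mean of 19.7 CPM per kb. Col18a1 encodes the core of a heparan sulfate proteoglycan of basement membranes, whose cleaved end is endostatin. The next was Col27a1, a fibrillar collagen best known from cartilage, at 15.6 CPM per kb with vehicle and 27.1 with BRD4780. Type I and III chains, the bulk collagens of interstitial fibers, were lower: Col1a2 stood at 4.19 CPM per kb, Col3a1 at 2.93 and Col1a1 at 1.27 with vehicle. Col6a6 at 3.32 and Col6a1 at 2.62 CPM per kb were among the 6 highest. The last of the 27 were Col13a1 at 0.142 and Col11a2 at 0.140 CPM per kb, whose vehicle ranges overlapped (0.115 to 0.180 and 0.116 to 0.192). The vehicle ranges of Col18a1 (18.3 to 20.8) and Col27a1 (9.21 to 22.9) overlapped as well, and neither overlapped that of Col1a2 (3.55 to 5.11). Col18a1 and Col27a1 together made up 56.9% to 67.8% of the summed CPM of the 27 members.

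**Figure D1:**
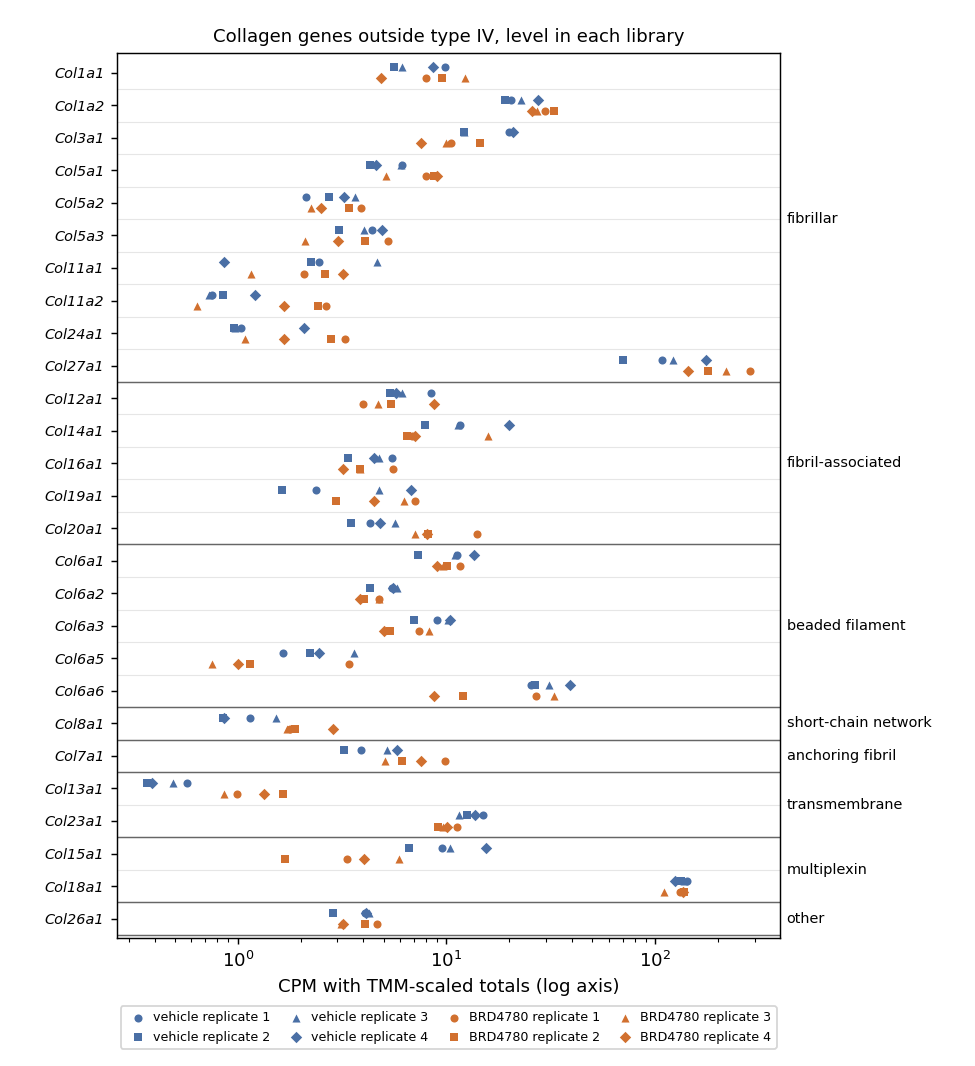
CPM of each described collagen gene (log axis) in the 4 vehicle (blue) and 4 BRD4780 (orange) libraries, grouped by structural class; marker shapes show the replicate. Col18a1 and Col27a1 stand above 70 CPM in every library, and only Col8a1, Col13a1 and Col20a1 have all orange points above all blue ones.

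Col20a1 encodes a fibril-associated collagen with fibronectin type III and von Willebrand factor domains. It was at 4.31, 3.50, 5.66 and 4.83 CPM in vehicle replicates 1 to 4 and at 13.95, 8.15, 7.06 and 8.03 CPM in BRD4780 replicates 1 to 4. Every BRD4780 library was above every vehicle library, and BRD4780 replicate 1 stood far above the other treated ones. Col20a1 rose by 1.04 ± 0.24 (SE) on the log2 scale, with an adjusted p of 0.0481 in edgeR's quasi-likelihood test. The gene lies at chr2:180986535-181018363 on the plus strand of GRCm38 and shares exon sequence with the annotated gene BX649560.1 on the same strand, so the split of reads between them is uncertain. In these bulk samples, more cells of a type and more RNA per cell cannot be told apart, for this or any later result.

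Col13a1 encodes a transmembrane collagen of cell adhesion sites, known from the neuromuscular junction. Vehicle replicates 1 to 4 had 0.574, 0.368, 0.487 and 0.388 CPM, and BRD4780 replicates 1 to 4 had 0.993, 1.64, 0.864 and 1.34 CPM. The groups did not overlap, although the level was low, with 8 to 49 counts per library. Col13a1 rose by 1.39 ± 0.32 (SE) on the log2 scale, 2.62-fold, with an adjusted p of 0.0484. The gene lies at chr10:61838236-61979108 on the minus strand, with no exon overlap in the annotation. Both calls were close to the threshold. They were lost on leaving out any 1 library except BRD4780 replicate 3, with adjusted p-values of 0.0810 to 0.151 for Col13a1 and 0.0711 to 0.146 for Col20a1, while their log2 fold changes stayed between 1.15 and 1.54 and between 0.76 and 1.17.

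Against the whole table, the 2 members called higher are 7.41% of the 27, where 2.30% of all genes tested were called higher. No member was called lower by edgeR's quasi-likelihood test, where 0.623% of all genes were. At an unadjusted p under 0.05 there were 4 lower members, Col3a1, Col6a3, Col15a1 and Col23a1 (14.8%, against 10.7% of all genes). At that level 8 were higher, namely Col1a2, Col5a1, Col7a1, Col8a1, Col11a2, Col13a1, Col20a1 and Col27a1 (29.6%, against 13.9%). DESeq2 called 2 members lower, Col15a1 and Col23a1, and limma-voom called none. All BRD4780 libraries were above all vehicle libraries for 3 members (11.1%, against 7.44% of all genes) and below them for 2 (7.41%, against 5.16%). The median log2 fold change of the members was -0.06, with 12 above and 15 below 0, beside 0.01 over all genes. With 27 members, 1 more or fewer call moves these shares by several percentage points, and no test of the list was made.

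**Figure D2:**
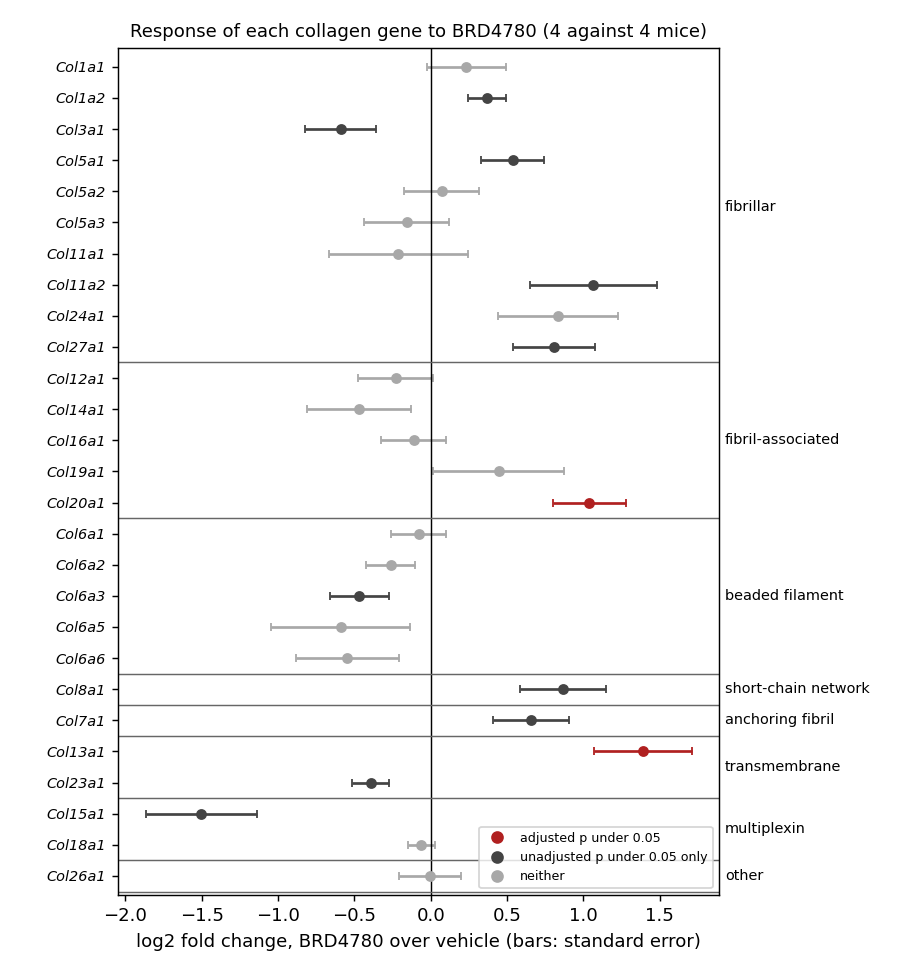
Log2 fold change of each described collagen gene, BRD4780 over vehicle, with its standard error; colors mark the adjusted threshold of 0.05 and the unadjusted one. The 2 red points, Col20a1 and Col13a1, are on the higher side, and Col15a1 at -1.503 is the farthest on the lower side.

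The multiplexin Col15a1 had the lowest fold change and stood just outside the threshold. Col15a1 is a proteoglycan collagen that links basement membranes of capillaries and muscle to the underlying fibers. It was at 9.48, 6.63, 10.4 and 15.5 CPM with vehicle and at 3.35, 1.68, 5.90 and 4.02 CPM with BRD4780. Every treated library was below every vehicle library, with the lowest in BRD4780 replicate 2 and the highest in vehicle replicate 4. Its log2 fold change was -1.503 ± 0.36 (SE), with an adjusted p of 0.0550 in edgeR. Over 15 alternatives the adjusted p ranged from 0.00146 to 0.162, and it passed in 4 of them: with DESeq2 (0.00146), with no filter on low counts (0.0450), with totals thinned to the smallest library (0.0365) and without BRD4780 replicate 3 (0.00439). The annotated gene model Gm12426 overlaps its exons on the opposite strand.

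Col18a1, the other multiplexin, was the steadiest of the 27 members in vehicle kidneys, with a coefficient of variation of 5.47%. Its levels were 141, 132, 137 and 124 CPM with vehicle and 131, 138, 110 and 136 CPM with BRD4780. The groups overlapped almost completely, and the log2 fold change was -0.06 ± 0.09 (SE) with an adjusted p of 0.700. Per kilobase, the ratio of Col15a1 to Col18a1 was 0.0565 to 0.140 with vehicle and 0.0138 to 0.0607 with BRD4780, so the 2 ranges met at a single library on each side.

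**Figure D3:**
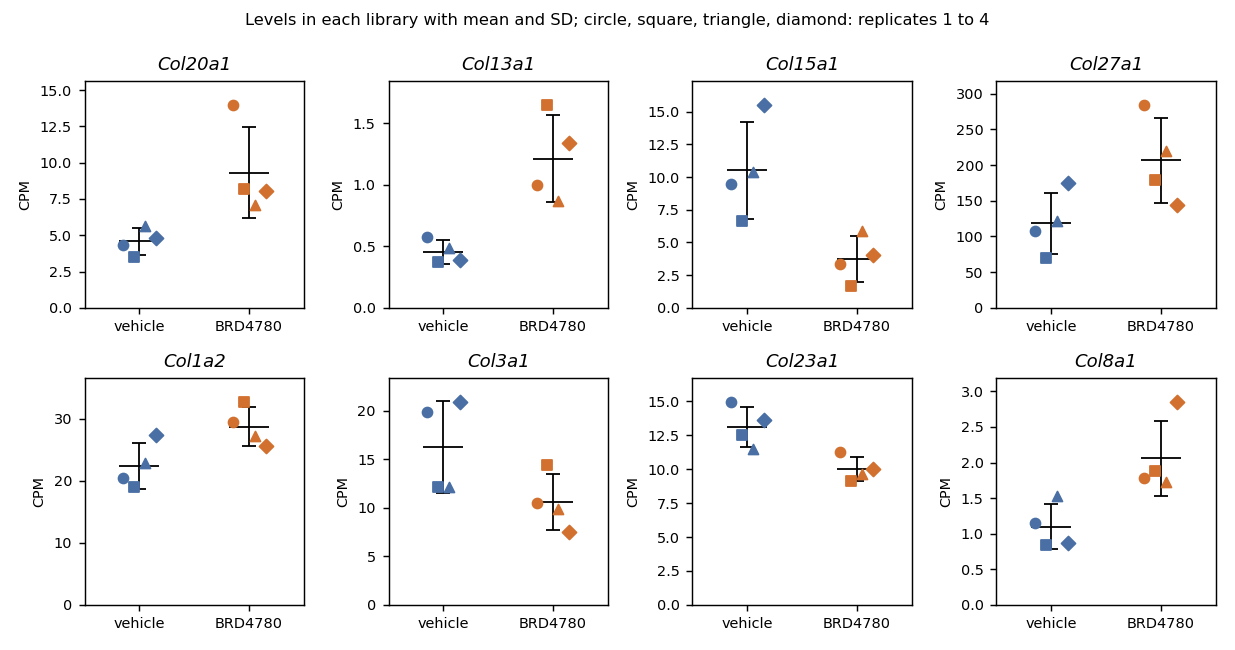
CPM of 8 collagen genes in each library, with the mean and SD of each group of 4. Col20a1, Col13a1 and Col8a1 have no treated library within the vehicle range and lie above it, Col15a1 and Col23a1 lie below it, and Col27a1, Col1a2 and Col3a1 overlap.

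Among the fibrillar collagens, 7 of 10 had a positive log2 fold change and 3 a negative one, with a median of 0.30, and none passed the threshold. Col1a1, the major chain of type I collagen, was at 9.80, 5.64, 6.15 and 8.62 CPM with vehicle and at 7.99, 9.53, 12.2 and 4.85 CPM with BRD4780. Both the highest and the lowest of these 8 values were treated libraries, and the log2 fold change was 0.23 ± 0.26 (SE, adjusted p = 0.604, edgeR). Col1a2, its partner chain, was at 20.5, 19.0, 22.8 and 27.3 CPM with vehicle and at 29.6, 32.7, 27.3 and 25.6 CPM with BRD4780. The groups overlapped through vehicle replicate 4, and the log2 fold change was 0.37 ± 0.13 (SE, adjusted p = 0.114, edgeR). Col3a1, the chain of the thinner reticular fibers, was at 19.9, 12.2, 12.1 and 20.9 CPM with vehicle and at 10.6, 14.4, 9.92 and 7.53 CPM with BRD4780. Vehicle replicates 1 and 4 were high and BRD4780 replicate 2 lay within the vehicle range, at a log2 fold change of -0.59 ± 0.23 (SE, adjusted p = 0.158, edgeR). Col3a1 shares exon sequence with Gm47302 on the same strand.

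Type I and type III chains are laid down in the same fibers, and their ratio within a library does not depend on the library's total. Per kilobase, Col3a1 over Col1a1 was 2.17, 2.31, 2.10 and 2.58 in the vehicle libraries and 1.41, 1.61, 0.863 and 1.65 in the BRD4780 libraries. All 4 treated ratios were below all 4 vehicle ratios. Of 7 chain ratios computed, this was the only one whose groups did not overlap. Since the ratios were chosen after values had been seen, they are given with no test. Col1a2 over Col1a1, the chains of type I collagen, ranged from 2.32 to 4.12 with vehicle and from 2.47 to 5.85 with BRD4780.

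**Figure D4:**
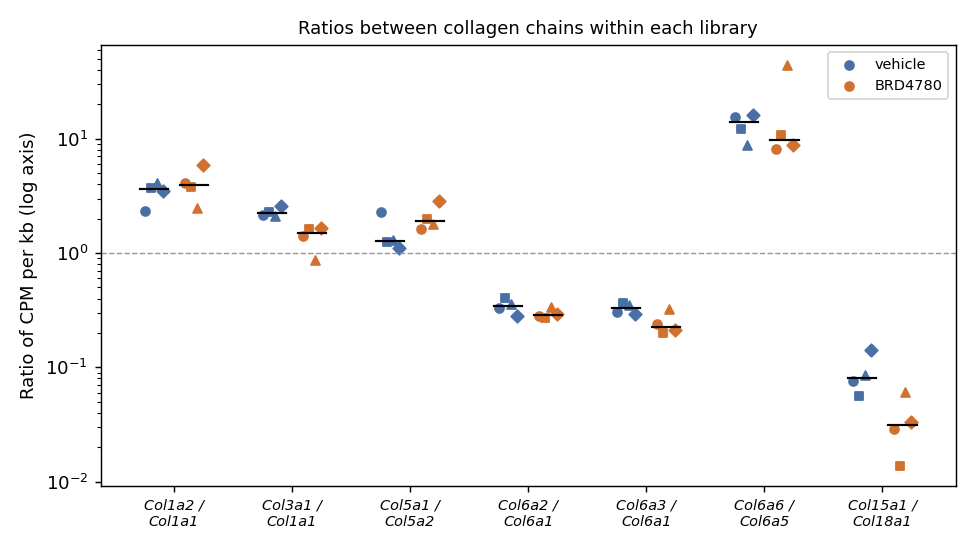
Ratios of CPM per kb between pairs of collagen genes within each library (log axis), with the median of each group as a bar. The Col3a1 to Col1a1 ratio lies between 2.10 and 2.58 with vehicle and between 0.863 and 1.65 with BRD4780, and the other 6 pairs overlap.

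Col27a1 was the most abundant fibrillar collagen and is described here in full although it was chosen after its values were seen. It was at 107, 70.1, 122 and 174 CPM with vehicle and at 284, 180, 219 and 144 CPM with BRD4780. Of the treated libraries 3 were above all vehicle libraries, while BRD4780 replicate 4, the smallest library, lay between vehicle replicates 3 and 4. The log2 fold change was 0.81 ± 0.27 (SE), with an unadjusted p of 0.0118 and an adjusted p of 0.107 in edgeR, and DESeq2 called it higher. The gene spans chr4:63214004-63334991 on the plus strand, with no overlapping exons of other genes. Because of its level, Col27a1 sets much of the summed collagen signal: the 27 members summed to 349 to 525 CPM with vehicle and 426 to 611 CPM with BRD4780. Without Col27a1 and Col18a1 the other 25 summed to 146 to 227 CPM with vehicle and 147 to 197 CPM with BRD4780, so the treated sums lay inside the vehicle range.

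The type V and XI chains nucleate fibrils and set their width, and they gave values in both directions. Col5a1 was at 4.31 to 6.14 CPM with vehicle and 5.15 to 9.04 CPM with BRD4780, at a log2 fold change of 0.54 ± 0.21 (SE, adjusted p = 0.153, edgeR). Its partner Col5a2 had a log2 fold change of 0.07 and the minor chain Col5a3 one of -0.16. Col5a2 and Col3a1 are neighbors on chromosome 1, on opposite strands. The log2 fold change of Col5a2 was within its SE of 0 (0.07 ± 0.245, adjusted p = 0.884, edgeR), and that of Col3a1 was -0.59 ± 0.23. Col11a2 had the second highest fold change of all 27. It was at 0.754, 0.847, 0.731 and 1.21 CPM with vehicle and at 2.65, 2.42, 0.639 and 1.67 CPM with BRD4780. Treated replicate 3 was the lowest of the 8 libraries while the other treated libraries were the highest, at a log2 fold change of 1.06 ± 0.42 (SE, adjusted p = 0.157, edgeR). Without BRD4780 replicate 3 the adjusted p of Col11a2 was 0.00703. Col11a1 varied most between vehicle libraries, from 0.862 to 4.63 CPM (coefficient of variation 61.2%), and had a log2 fold change of -0.21. Col24a1, a fibrillar collagen known from developing bone, had one of 0.83 (adjusted p = 0.218, edgeR).

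All 5 described chains of type VI collagen had a negative log2 fold change, with a median of -0.47, and none passed the threshold. Col6a1 and Col6a2 are neighboring genes on chromosome 10 that encode the short chains. Col6a1 was at 11.2, 7.29, 10.96 and 13.5 CPM with vehicle and at 11.6, 10.1, 9.61 and 9.04 CPM with BRD4780, so the treated values lay inside the vehicle range. Its log2 fold change was -0.08 ± 0.18 (SE, adjusted p = 0.823, edgeR), and it was 0.05 without vehicle replicate 4 and 0.03 with thinned totals. Col6a2 was at 5.46, 4.31, 5.79 and 5.52 CPM with vehicle and at 4.76, 4.03, 4.73 and 3.85 CPM with BRD4780. Here 2 treated libraries lay below the vehicle range, at a log2 fold change of -0.26 ± 0.16 (SE, adjusted p = 0.327, edgeR). With thinned totals the log2 fold change of Col6a2 was -0.62, below that of Col6a3 under the same setting (-0.41). The thinning was a single random draw, so this order may differ in another draw.

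Among the long chains of type VI, Col6a3, the chain that is cut to release endotrophin, was at 9.05, 7.00, 10.2 and 10.4 CPM with vehicle and at 7.41, 5.33, 8.23 and 5.02 CPM with BRD4780. BRD4780 replicates 1 and 3 overlapped the vehicle range and replicates 2 and 4 were below it, at a log2 fold change of -0.47 ± 0.19 (SE, adjusted p = 0.173, edgeR). Col6a6, an alternative to Col6a3 in the microfilament, was at 25.3 to 38.9 CPM with vehicle and at 26.98, 12.01, 32.9 and 8.70 CPM in BRD4780 replicates 1 to 4. Replicates 2 and 4 were low and the other two inside the vehicle range, which gave a log2 fold change of -0.55 ± 0.34 (SE, adjusted p = 0.339, edgeR). Col6a5, its neighbor on chromosome 9, was at 1.65, 2.21, 3.59 and 2.46 CPM with vehicle and at 3.39, 1.14, 0.751 and 1.00 CPM with BRD4780. BRD4780 replicate 1 was among the highest of the 8 and the other treated libraries were the lowest, at -0.59 ± 0.45 (SE, adjusted p = 0.441, edgeR). The log2 fold change of Col6a5 was -1.35 without BRD4780 replicate 1, -0.31 without BRD4780 replicate 3 and -0.39 without vehicle replicate 3. The per-kilobase ratio of Col6a6 to Col6a5 was 15.6, 12.2, 8.75 and 16.1 with vehicle and 8.08, 10.7, 44.5 and 8.81 with BRD4780, so BRD4780 replicate 3 stood apart from the other 7 libraries.

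The other fibril-associated collagens gave no call. Col14a1, which binds type I fibers through decorin, was at 7.88 to 19.96 CPM with vehicle, and at 6.83, 6.44, 15.8 and 7.03 CPM in BRD4780 replicates 1 to 4. The treated libraries other than replicate 3 lay below the vehicle range, and the log2 fold change was -0.47 (adjusted p = 0.414, edgeR). Col12a1, its close relative in tension-bearing tissue, had -0.23 and Col16a1 -0.11, with adjusted p-values of 0.588 and 0.782. Col19a1, a minor collagen of basement membrane zones, varied widely with vehicle, from 1.62 to 6.77 CPM, at a log2 fold change of 0.45 (adjusted p = 0.542, edgeR). Of the 5 fibril-associated genes 2 were above 0, and their median was -0.11, with Col20a1 far from the rest.

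Col8a1, a short-chain collagen of vessel walls, and Col23a1, a transmembrane collagen, were also separated by group without passing the threshold, and were chosen after their values were seen. Col8a1 was at 1.15, 0.847, 1.52 and 0.862 CPM with vehicle and at 1.78, 1.88, 1.73 and 2.85 CPM with BRD4780. All 4 treated libraries were higher, at a log2 fold change of 0.87 ± 0.28 (SE, adjusted p = 0.102, edgeR). Col23a1 was at 14.9, 12.5, 11.5 and 13.6 CPM with vehicle and at 11.3, 9.13, 9.65 and 10.0 CPM with BRD4780. All 4 treated libraries were lower by a small margin, at a log2 fold change of -0.39 ± 0.12 (SE, adjusted p = 0.0937, edgeR). Col7a1, which forms the anchoring fibrils under epithelia, was at 3.24 to 5.82 CPM with vehicle and 5.07 to 9.85 CPM with BRD4780 (log2 fold change 0.66, adjusted p = 0.1495, edgeR). Col26a1 had a log2 fold change of -0.01. The 2 transmembrane members thus stood on opposite sides of 0, with Col13a1 past the threshold.

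Libraries were not evenly spread over the extremes. BRD4780 replicate 1 was the highest of the 8 libraries for 10 of the 27 members and vehicle replicate 2 the lowest for 11. Vehicle replicate 4 was the highest for 6 members and BRD4780 replicate 4 the lowest for 6. The same counts were not made over all genes tested. Whether this spread is particular to the collagens was therefore not tested.

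Genes that build, cut or bind collagen were compared through 6 lists, in which 6 of 63 tested genes passed the threshold, all higher with BRD4780, beside 2.30% of all genes called higher. In folding and export from the endoplasmic reticulum 4 of 13 rose. These were Fkbp7, a prolyl isomerase of the endoplasmic reticulum, by 1.25 on the log2 scale, Sec24d by 0.78 and Sec23a by 0.44, both coat proteins of the transport carriers, and Kdelr2, the retrieval receptor for endoplasmic reticulum proteins, by 0.47 (adjusted p = 0.0175, 0.0243, 0.0366 and 0.0428, edgeR). Fkbp7 was at 1.71 to 2.58 CPM with vehicle and 4.47 to 6.48 CPM with BRD4780, and Sec24d at 16.4 to 19.6 and 23.8 to 38.6 CPM, with no overlap in either. Sec23a and Kdelr2 did not overlap either, at 26.3 to 30.9 and 35.1 to 42.3 CPM, and at 105 to 117 and 127 to 175 CPM. Outside the cell, 2 of 13 genes of propeptide removal and crosslinking rose. Bmp1, the protease that cuts the end of fibrillar procollagens, rose by 0.56, and Adamts3, which trims the other end, by 1.37 (adjusted p = 0.0452 and 0.0406, edgeR). Bmp1 was at 7.63 to 9.58 CPM with vehicle and 11.4 to 13.9 CPM with BRD4780, and Adamts3 at 0.663 to 0.914 and 1.54 to 3.18 CPM. The medians of these lists were 0.22 and 0.41, beside 0.01 over all genes.

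The other lists held no gene past the threshold. In prolyl and lysyl modification 0 of 8 passed in edgeR, and the smallest p belonged to P4ha1, a prolyl 4-hydroxylase subunit, at -0.25 (adjusted p = 0.101), and Plod1, a lysyl hydroxylase, at 0.13 (adjusted p = 0.333). In breakdown and inhibitors it was 0 of 14, with Mmp15 at -0.68 and the dipeptidase Pepd at -0.30 (adjusted p = 0.215 and 0.240, edgeR). Collagen receptors gave 0 of 7, with Ddr1 at -0.17 and Itga2 at 1.26 (adjusted p = 0.299 and 0.312, edgeR). Fibril-binding proteoglycans gave 0 of 8, with Dcn at 0.52 and Bgn at 0.19 (adjusted p = 0.102 and 0.193, edgeR). Type IV collagen, the network of basement membranes, gave 0 of 6 and a median of 0.10, with Col4a3 at 0.81 and Col4a4 at 0.37 (adjusted p = 0.0952 and 0.0965, edgeR). No set test was made, and the difference between these lists and the collagens themselves was not tested.

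**Figure D5:**
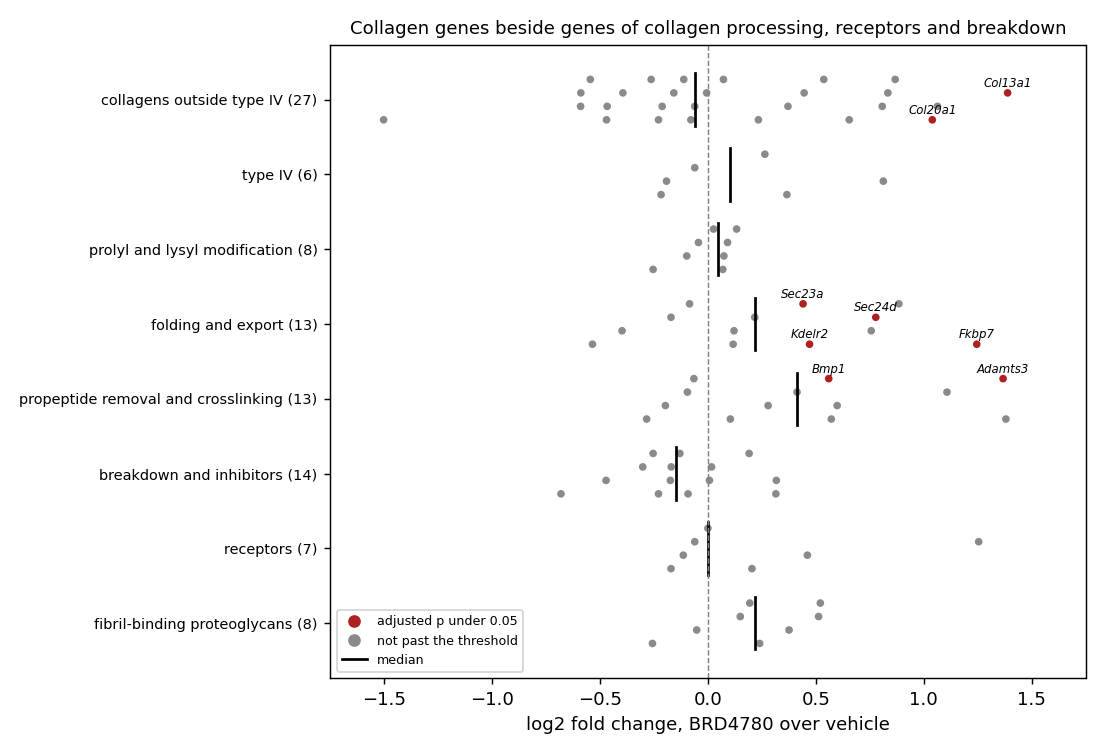
Log2 fold change of every tested gene of 8 lists, BRD4780 over vehicle, with the list median as a bar and the number tested in parentheses. Genes past the adjusted threshold of 0.05 are red and named: 2 collagens outside type IV, 4 genes of folding and export and 2 of propeptide removal and crosslinking.

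Markers of cell types that make collagen moved to different degrees. Of 9 tested fibroblast markers 1 rose, Pi16, and the summed list was 91.1 to 123 CPM with vehicle and 99.2 to 158 CPM with BRD4780. The 9 went in both directions, with 5 above 0 and a median log2 fold change of 0.06. They ranged from -0.91 for Dpt to 0.95 for Pi16. None of 6 myofibroblast markers passed in edgeR (67.6 to 78.3 against 56.3 to 79.5 CPM), nor any of 9 for smooth muscle and pericytes (78.3 to 84.9 against 73.1 to 102 CPM) or of 6 for mesangium (85.1 to 99.7 against 87.0 to 101 CPM). Endothelial markers rose in 4 of 11 cases (Flt1, Egfl7, Eng and Robo4), and their sum was 199 to 382 CPM with vehicle and 447 to 565 CPM with BRD4780, with no overlap. Podocyte markers rose in 4 of 8 (Nphs1, Podxl, Ptpro and Cdkn1c), with sums of 64.1 to 151 and 217 to 324 CPM and no overlap. Both sums were lowest in vehicle replicate 4. Of 6 thick ascending limb markers 3 fell (Kcnj1, Cldn19 and Bsnd), with sums of 2890 to 3913 and 1881 to 3107 CPM. Over all 13474 genes tested, 2.30% were called higher and 0.623% lower. As single genes, 7.44% had all treated libraries above all vehicle libraries and 5.16% had them below. Of 6 tested adipocyte markers Pck1 rose, a gene that proximal tubule cells also use. The other 5 had negative log2 fold changes without passing the threshold, at -2.17 for Plin1, -2.10 for Adipoq, -1.82 for Cidec, -1.73 for Cfd and -0.39 for Fabp4 (adjusted p = 0.214, 0.193, 0.201, 0.258 and 0.477, edgeR). Without Pck1 the summed list, most of it Fabp4, was 81.7 to 240 CPM with vehicle and 52.2 to 161 CPM with BRD4780. No marker passed among 7 of macrophages (125 to 247 against 97.6 to 157 CPM), 7 of urothelium (48.6 to 94.0 against 27.9 to 76.8 CPM), 7 of proximal tubule (51700 to 60160 against 33540 to 56560 CPM) or 6 of collecting duct (720 to 1046 against 504 to 931 CPM). Log2 fold changes were above 0 for 2 of 7 macrophage, 1 of 7 urothelial and 0 of 6 collecting duct markers. They were above 0 for 11 of 11 endothelial, 8 of 8 podocyte and 0 of 6 thick ascending limb markers. For myofibroblasts it was 2 of 6, for smooth muscle and pericytes 7 of 9, and for mesangium 3 of 6. Most of the proximal tubule sum was Kap, at a log2 fold change of -0.42 (adjusted p = 0.188, edgeR). The median log2 fold change of the 7 proximal tubule markers was -0.08, with 3 above 0. The part of cell composition, fat markers included, in the values of Col20a1, Col13a1 and Col15a1 was not tested.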

How the data were processed

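Bulk RNA-seq was measured in 8 kidney libraries, 4 of each treatment. RNA came from a kidney slice and was captured on oligo-dT beads with a stranded kit, per the labels' protocols. The authors deposited 1 table of expected counts per gene, not normalized. The submitters' processing notes name STAR 2.5.2b, RSEM 1.3.0, Picard and the builds mm10 and hg19. For the annotation and the strand setting of counting, nothing is given in the sources used here. Because RSEM divides reads that fit several genes, genes with overlapping exons (3 described collagens on the same strand, 3 on the opposite one) are less certain.

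Symbols on more than 1 line with identical values (343) were collapsed, which left 21759 genes, and 1 column that matched no sample analysed was not used. Expected counts were rounded to whole numbers. In R 4.3.3, genes were kept with filterByExpr, scaled by TMM and tested with glmQLFit and glmQLFTest of edgeR 4.0.16, with BRD4780 as the only factor, and p-values were adjusted by Benjamini-Hochberg over all 13474 genes. SE was taken as the size of a log2 fold change over √F. CPM per kb use the exon union length of GENCODE M21 basic on GRCm38. Upstream stretches are RefSeq's.

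Alternatives were DESeq2 1.42.0, its size factors, limma-voom (limma 3.58.1), no filter on low counts, a filter of 10 counts in 4 libraries, thinning of all libraries to the smallest total, and leaving out each library. The thinning was a single random draw and was not repeated. The procedure was also run on simulated data as a check of the code, and no call reported here rests on it. Counts are not unique molecules, and depth limits low genes: 3 counts are 0.105 to 0.523 CPM by library.

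Values in each library are given for members past the threshold, for Col1a1, Col1a2, Col3a1, Col6a1, Col6a2, Col6a3, Col15a1 and Col18a1, and for the 3 highest and 3 lowest fold changes. Values in single libraries of Col6a6, Col8a1, Col14a1, Col23a1, Col27a1, Serpinh1 and Dcn are given outside this rule, with their values known. In the other lists the genes past the threshold are named, or else the pair with the smallest p. Members and lists were chosen with earlier results of these data known. Col21a1, P3h1, P3h2, P3h3, P3h4, Colgalt1, Colgalt2, Adgrg1 and Adgre1 were not analysed here. Replicate numbers follow the order of deposition and pair nothing. A block on a number that 2 titles of each group share was added after seeing the data.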

Additional observations from a re-analysis of the deposited data

Results flagged for a closer look

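In 54 groups of 4 values (27 members in both treatments), the highest or lowest library was compared with the others of its group, and Dixon's criterion was applied to its gap to the nearest one as a share of the range. This held for 6 groups. The criterion's rate of about 1 in 20 is for independent normal values. CPM of genes from the same libraries are not independent, so the 6 groups cannot be set against that rate. Among the treated libraries, BRD4780 replicate 1 had 3.39 CPM of Col6a5, the others 0.751 to 1.14, and 13.95 CPM of Col20a1, the others 7.06 to 8.15. BRD4780 replicate 4 had 2.85 CPM of Col8a1, the others 1.73 to 1.88. BRD4780 replicate 3 had 15.8 CPM of Col14a1, the others 6.44 to 7.03. Among the vehicle libraries, replicate 4 had 2.07 CPM of Col24a1, the others 0.958 to 1.04, and replicate 2 had 2.87 CPM of Col26a1, the others 4.06 to 4.26. Of these genes only Col20a1 passed the test, and without BRD4780 replicate 1 its log2 fold change was 0.76 with an adjusted p of 0.115 in edgeR.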

How the results depend on the processing

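The number of collagens called higher was 2, and it was 3 with DESeq2 (Col27a1 added), 0 with limma-voom, 1 with no filter on low counts (Col20a1), 0 with totals thinned to the smallest library (24 members tested, Col13a1 not among them), and 0 to 6 on leaving out 1 library. The number called lower was 0, and it was 2 with DESeq2, 1 with no filter on low counts, 1 with thinned totals, and 0 to 3 on leaving out 1 library. Results with thinned totals rest on a single random draw. All leave-one-out calls came without BRD4780 replicate 3, when Col5a1, Col7a1, Col11a2, Col13a1, Col20a1 and Col24a1 were called higher and Col6a3, Col14a1 and Col15a1 lower. Over the whole table DESeq2 called 862 genes higher and 486 lower, limma-voom called 204 higher, and leaving out 1 library gave 26 to 1647 higher and 5 to 1537 lower. Alternatives were followed for the 12 collagens with a value in each library by the rule. Among these the sign turned for a pair of them: Col18a1 ranged from -0.10 to 0.01 on leaving out 1 library (0.008 without BRD4780 replicate 3), and Col6a1 from -0.23 to 0.05 (0.05 without vehicle replicate 4) and stood at 0.032 with thinned totals. The other 10 kept their sign in every alternative that tested them. The median log2 fold change ranged from -0.13 to 0.04 on leaving out 1 library. Where calls were lost or gained, the cause was not tested, except that leaving out a library leaves fewer samples. The smallest library, BRD4780 replicate 4, had 5.74 M counts, so levels near 0.523 CPM rest on 3 counts there. The titles of vehicle replicate 2 and BRD4780 replicate 1, and of vehicle replicate 4 and BRD4780 replicate 2, share a number whose meaning the labels do not state. A fit with that number as a block, added after seeing the data, called 57 genes higher and 90 lower and 0 collagens in either direction. In it the collagens' median log2 fold change was 0.30, Col18a1 was at 0.065 and Col6a1 at 0.12. It draws the fold change from those 2 pairs alone. Their deviations from the group means correlated at -0.06 and -0.33 across 13474 genes, which are not independent replicates. Vehicle and BRD4780 libraries that share no number correlated at -0.32 to 0.28. Deviations from a group mean also sum to 0, so these values cannot show whether the libraries are paired. Since the meaning of the number is not stated, the samples were not treated as pairs.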

Other observations

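Serpinh1, the collagen-specific chaperone of the endoplasmic reticulum, was chosen after its values were seen. It was at 75.2, 81.3, 93.7 and 64.9 CPM with vehicle and at 47.6, 49.2, 69.1 and 51.0 CPM with BRD4780. Only BRD4780 replicate 3 reached the vehicle range, and the log2 fold change was -0.54 ± 0.14 (SE, adjusted p = 0.0702, edgeR's quasi-likelihood test). It stood on the other side of 0 from the called genes of its list, Fkbp7, Sec24d, Sec23a and Kdelr2.

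Dcn, whose product decorin coats type I fibers, was at 31.2, 28.3, 34.5 and 30.8 CPM with vehicle and at 42.0, 47.4, 31.1 and 60.6 CPM with BRD4780. BRD4780 replicate 3 again lay within the vehicle range and the other treated libraries above it.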
